A study of Mus musculus with 2 samples.

Results

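Six2, Six4, Eya1, Eya2, Eya4, Pitx3, Lbx1 and Msc are 8 genes chosen by symbol, as factors that act beside or above the myogenic regulators, out of 32285 genes counted in single tdTomato-positive (tdT+) cells of mouse embryos. The cells came from dissociated trunks and limbs at E14, sorted by flow cytometry, and were sequenced as 2 10x Genomics 3′ libraries. One library is labelled SRSF2f/f/Myf5-Cre/tdT, with both copies of Srsf2 floxed, and the other SRSF2f/w/Myf5-Cre/tdT, with 1 floxed copy, the genotype that served as the control. Both carry Cre under the Myf5 promoter and the Rosa26-LSL-tdT reporter. The reporter is built to mark cells in which that promoter had been active at some time, whatever they express now. The purity of the sort was not tested here. The 2 libraries are written below as the library labelled SRSF2f/f and the library labelled SRSF2f/w, and in a pair of values the former comes first. There is 1 library per genotype, the labels do not say how many embryos it pools, and no test between them was possible.

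The counts went against the labels. Srsf2, the targeted gene, was at 218.9 CPM (UMIs, unique molecular identifiers, scaled to 1000000 over the cells summed) in the library labelled SRSF2f/f and at 152.8 CPM in the library labelled SRSF2f/w. Muscle cells made up 18.08% of kept cells in the former and 1.073% in the latter. The names of the deposited files give the genotypes the other way round. Directions between the libraries are therefore given by label only, and which genotype each stands for cannot be told apart here. The Srsf2 counts come from transcript ends and overlap the genes Mettl23 and Mfsd11 on the opposite strand, and the share of cells with a deleted gene was not measured.

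Six2, Six4 and their relatives encode homeodomain transcription factors, and the Eya genes encode their coactivators, which also carry phosphatase activity. In muscle, these factors and coactivators act together upstream of Pax3 in the early somite and on Myod1, Myf5 and Myog in committed cells. Pitx3 is a homeodomain factor of the Pitx family that is present in differentiating myoblasts and is otherwise best known from midbrain dopamine neurons and the lens. Lbx1 is a homeodomain factor of muscle precursors that migrate to the limb, and it also sets the fate of dorsal spinal cord interneurons. Msc (musculin, also MyoR) is a basic helix-loop-helix repressor that binds the same E-box motif as Myod1.

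RefSeq promoter windows, from 250 bases before to 50 bases after a start site, were found for 4 of the 8 genes on GRCm38.p6. Eya1, Eya2, Lbx1 and Msc had none. Both strands were searched for CANNTG (the E-box), for CAGCTG, an E-box form bound by myogenic factors, and for TCAGGTT (the MEF3 motif bound by Six4 and its relatives), and a CAGCTG match also counts as an E-box. Of 32851 windows of 300 bases, 72.3% held an E-box, 16.3% held CAGCTG and 4.07% held MEF3. Among the 4 genes with a window, Pitx3 alone held CAGCTG and Six4 alone held MEF3, on the opposite strand and in the first of its 2 windows. Those windows are printed 5′ to 3′ along the gene, with the matches in capitals, because one carries the myogenic E-box and the other the motif of the gene's own protein family. Eya4 held an E-box of another form, CACTTG, at the same site in both of its windows, which overlap. Six2 held none of the 3 motifs. A match describes letters and was not tested as a binding site.

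Pitx3, minus strand of chr19:46148276-46148575, CAGCTG in capitals: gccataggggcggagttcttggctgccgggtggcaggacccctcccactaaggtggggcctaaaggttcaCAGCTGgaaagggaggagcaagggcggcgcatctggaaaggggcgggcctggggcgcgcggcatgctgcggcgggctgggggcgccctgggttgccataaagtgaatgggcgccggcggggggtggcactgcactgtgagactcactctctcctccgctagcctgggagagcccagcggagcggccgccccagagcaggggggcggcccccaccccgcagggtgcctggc
Six4, minus strand of chr12:73113196-73113495, reverse complement of TCAGGTT in capitals: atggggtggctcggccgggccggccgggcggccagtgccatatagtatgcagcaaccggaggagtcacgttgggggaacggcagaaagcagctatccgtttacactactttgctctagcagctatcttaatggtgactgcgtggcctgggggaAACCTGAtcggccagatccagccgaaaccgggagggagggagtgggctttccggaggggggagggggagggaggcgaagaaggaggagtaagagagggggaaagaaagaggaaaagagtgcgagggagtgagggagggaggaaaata

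After quality limits, 12523 of 15268 and 10345 of 12498 barcodes were kept, with medians of 10751 and 9480 UMIs. Cells were sorted into classes by UMIs of fixed marker genes, none of them among the 8 genes. Pax7-positive muscle cells (Pax7 with few Myog UMIs, the progenitor side) numbered 1149 and 39. Muscle cells with at least 5 Myog UMIs and no Pax7 (Myog>=5, the differentiating side) numbered 725 and 45, and other muscle cells 214 and 19. Each of these 3 muscle classes thus holds fewer than 50 cells in the library labelled SRSF2f/w. Genes that set no class followed the names: desmin (Des) was highest in Myog>=5 cells at 235.0 and 294.6 CPM, Dcx in neurons at 463.4 and 361.3 CPM, and Srgn in immune cells at 1610 and 2654 CPM. The exception was the pericyte class, in which Cspg4 stood at 84.1 and 92.9 CPM, below its 263.6 and 215.3 CPM in chondrocytes. The libraries shared 74 barcodes, 50 of them among kept cells of either library. A level below is the sum of UMIs over the cells of a class in CPM of the same cells, with an exact 95% Poisson interval in parentheses, and intervals cover counting error only. Since 3′ UMI counts depend on each transcript, levels are compared across cells for 1 gene and not between genes.

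Among classes of at least 30 cells, a muscle class held the highest level of 7 of the 8 genes in the library labelled SRSF2f/f, against 16.0% of the 16875 genes with at least 20 UMIs in these classes, and Lbx1 was highest in neurons. The other library gave the same count with the same exception, against 18.2% of 16828 genes. For 2 of the genes this order is not settled in the former library. For Eya1, Pax7-positive cells over neurons gave a log2 ratio of 0.02 (-0.27 to 0.32), and Eya2 stood at 16.7 CPM (12.3 to 22.1) in other muscle cells and 14.4 CPM (9.15 to 21.7) in Schwann cells. The library labelled SRSF2f/w does not settle Eya2 either. There it stood at 15.9 CPM (7.61 to 29.2) in Pax7-positive and 8.31 CPM (3.98 to 15.3) in Schwann cells, on 10 UMIs each. A muscle cell held a median of 2 of the 8 genes in both libraries, and 7.33% and 5.41% of muscle cells held none. In immune cells, which should lack muscle genes, 85.4% and 93.7% held none, at median depths of 12865 and 14307 UMIs against 14434 and 15313 in muscle cells. In Pax7-positive cells the median was 3 genes in both libraries. A UMI of Six2 or Six4 together with a UMI of an Eya gene was found in 34.8% and 34.2% of muscle cells, against 3.1% and 4.27% of mesenchymal cells. Taken apart, Six2 or Six4 was found in 51.55% and 54.05% of muscle cells, and an Eya gene in 62.5% and 60.36%. Whether they shared cells more often than these separate shares give was not tested. Mesenchymal cells were also less deep than muscle cells, at medians of 10230 and 10700 UMIs. Outside muscle, 7 of the 8 genes (all but Pitx3) were at least 2-fold above immune cells in some class of the library labelled SRSF2f/f, against 45.6% of all genes. In the other library 6 were, against 50.7%, and Msc did not reach this. The 123 immune cells of the former hold only 1 to 6 UMIs of each gene. For Six2 the interval in its mesenchymal cells, 2.49 to 3.99 CPM, overlaps that in its immune cells, 0.126 to 3.75 CPM. Msc is no more settled. As a percent of its muscle level, its intervals were 1.82% to 3.23% in mesenchymal and 2.82% to 6.81% in endothelial cells. Both overlap the 0.142% to 4.23% in immune cells, on 2 UMIs.

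**Figure D1:**
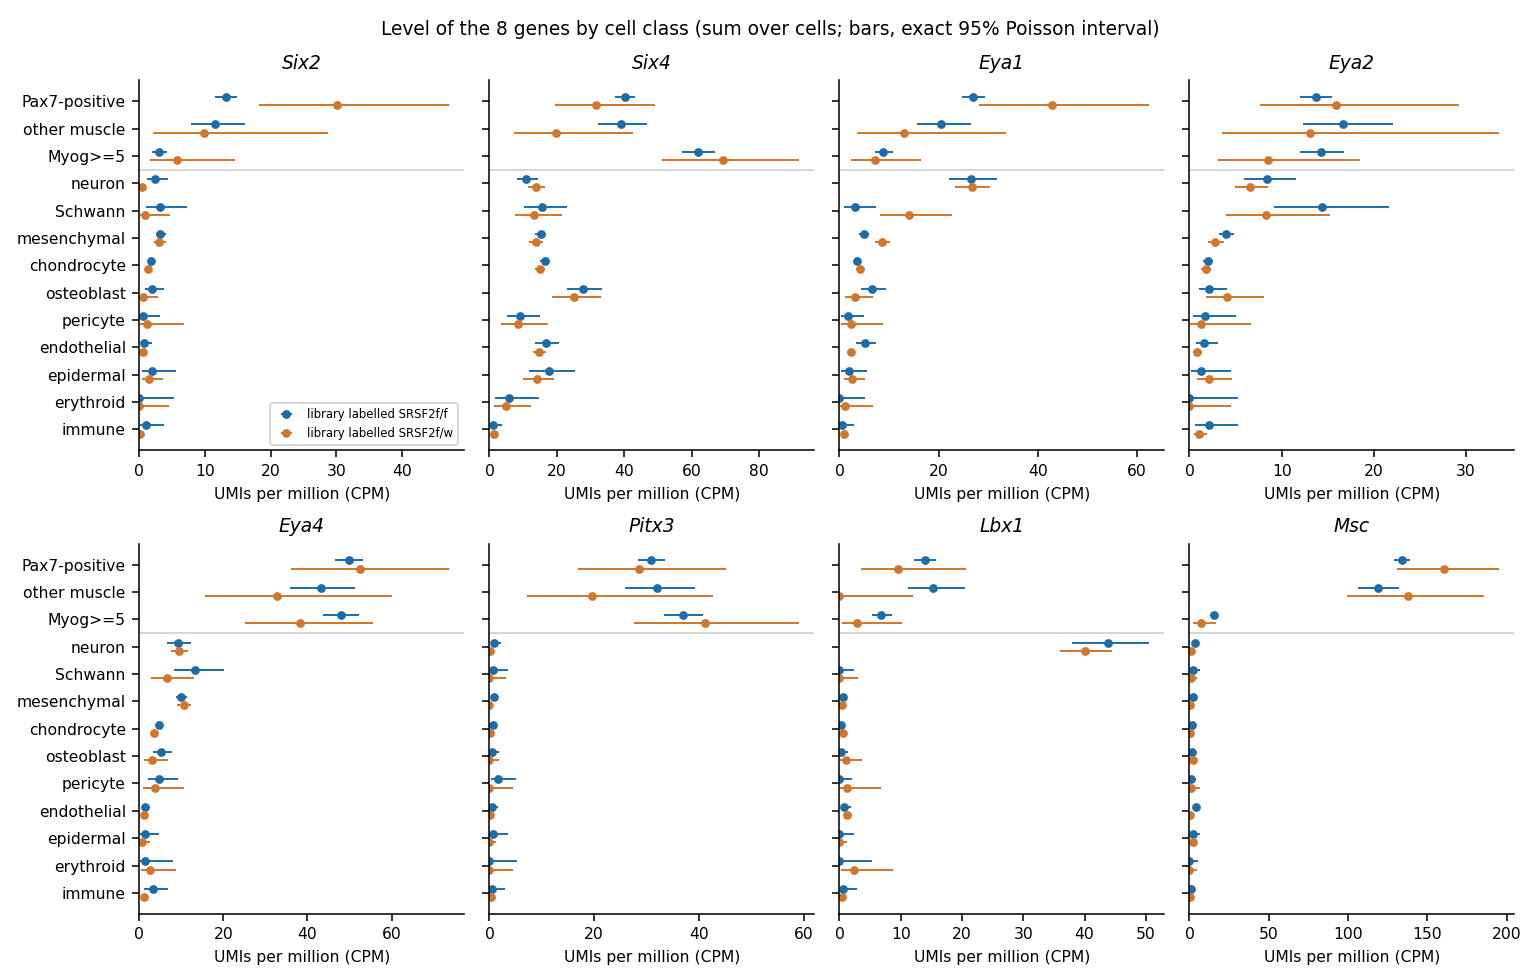
Level of each gene (x axis, CPM) in 13 cell classes (y axis), with 1 point per library and bars for the exact 95% Poisson interval; the grey line parts muscle from other classes. Msc and Pitx3 were near 0 outside muscle, Lbx1 peaked in neurons at 43.9 and 40.0 CPM, and Six4 stood at 8 to 28 CPM in most other classes.

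Between Pax7-positive and Myog>=5 cells the 8 genes split into those higher on the progenitor side and those level or higher on the differentiating side. Of the 8 genes, 4 in the library labelled SRSF2f/f (Msc, Six2, Eya1 and Lbx1) were over 2-fold higher in Pax7-positive cells, and none was over 2-fold higher in Myog>=5 cells. Over all 12704 genes with enough UMIs, 16.1% were over 2-fold higher in Pax7-positive cells and 8.10% over 2-fold higher in Myog>=5 cells. The median log2 ratio was 0.55 for the 8 genes and 0.21 for all genes. Enough UMIs were found for 6 of the 8 genes in the library labelled SRSF2f/w. Of these, 3 (Msc, Eya1 and Six2) were over 2-fold higher in Pax7-positive cells, against 13.2% of 5807 genes, and Six4 was over 2-fold higher in Myog>=5 cells, against 8.56%.

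Six2, known from nephron and craniofacial progenitors, stood at 13.1 CPM (11.5 to 14.9) in Pax7-positive cells and 2.93 CPM (1.97 to 4.18) in Myog>=5 cells of the library labelled SRSF2f/f. Its log2 ratio of Pax7-positive over Myog>=5 was 2.17 (1.61 to 2.77) there and 2.41 (0.82 to 4.43) in the library labelled SRSF2f/w, from 19 and 4 UMIs. It was low per cell: 14.8% of the Pax7-positive cells had a UMI, with at most 4 in a cell, and 4.71% had one after each cell was thinned to 5000 UMIs.

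Six4 ran the other way. It stood at 40.2 CPM (37.3 to 43.2) in Pax7-positive and 61.9 CPM (57.2 to 66.9) in Myog>=5 cells of the library labelled SRSF2f/f, a log2 ratio of -0.62 (-0.78 to -0.47). In the other library the levels were 31.8 CPM (19.4 to 49.0) and 69.4 CPM (51.4 to 91.8), a log2 ratio of -1.13 (-1.96 to -0.35).

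The 3 Eya genes had different profiles. Eya1 fell from 27.0 CPM (24.6 to 29.5) in Pax7-positive to 8.87 CPM (7.15 to 10.9) in Myog>=5 cells, a log2 ratio of 1.60 (1.28 to 1.94), and the library labelled SRSF2f/w gave 2.60 (1.20 to 4.33). Eya4 was level at 49.8 CPM (46.6 to 53.1) and 47.9 CPM (43.7 to 52.3), with log2 ratios of 0.06 (-0.10 to 0.22) and 0.45 (-0.32 to 1.24). Eya2 was also level, at 13.7 CPM (12.0 to 15.5) and 14.2 CPM (12.0 to 16.7), a log2 ratio of -0.06 (-0.36 to 0.25). The library labelled SRSF2f/w gave Eya2 a log2 ratio of 0.90 (-0.70 to 2.64), from 10 and 6 UMIs. By counting error, the former library holds the difference of Eya4 and Eya2 between these states to less than 2-fold.

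Pitx3 was held across both states, at 30.9 CPM (28.4 to 33.5) in Pax7-positive and 36.9 CPM (33.2 to 40.8) in Myog>=5 cells, a log2 ratio of -0.26 (-0.45 to -0.06). The other library gave -0.52 (-1.46 to 0.37).

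Lbx1 stood at 13.9 CPM (12.2 to 15.7) in Pax7-positive and 6.83 CPM (5.32 to 8.63) in Myog>=5 cells of the library labelled SRSF2f/f, a log2 ratio of 1.03 (0.64 to 1.43). This is at the limit of 2-fold, and it was between 0.51 and 1.03 over 10 alternative settings, below 1 under 8 of them and lowest after thinning to 5000 UMIs. With 6 and 2 UMIs, the library labelled SRSF2f/w gave 1.75 (-0.73 to 5.09). Within Pax7-positive cells of the former library, Lbx1 was 14.5 CPM in the 852 cells with at least 2 UMIs of Mki67 and Top2a, which mark cycling cells, and 7.46 CPM in the 155 cells with none, a log2 ratio of 0.96 (0.15 to 1.89). For the other 7 genes that ratio lay between -0.28 (-0.47 to -0.09) for Msc and 0.58 (-0.15 to 1.42) for Six2.

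Msc had the widest contrast of the 8 genes in both libraries. It stood at 133.9 CPM (128.7 to 139.3) in Pax7-positive cells and 15.4 CPM (13.1 to 18.0) in Myog>=5 cells of the library labelled SRSF2f/f, a log2 ratio of 3.12 (2.89 to 3.36) that exceeded that of 99.4% of all genes. The library labelled SRSF2f/w had 160.3 CPM (130.6 to 194.8) and 7.08 CPM (2.30 to 16.5), a log2 ratio of 4.50 (3.23 to 6.15). A UMI of Msc was found in 72.9% and 79.5% of Pax7-positive cells and in 1.63% and 0.342% of immune cells. After thinning to 5000 UMIs the shares in Pax7-positive cells were 41.7% and 38.5%, and those in immune cells 0.877% and 0.357%. The antisense gene Gm9947 overlaps Msc on the opposite strand and was counted apart from it.

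Muscle cells were also grouped by their own Myog UMIs. Over cells with 0, 1 to 4, 5 to 19 and at least 20 Myog UMIs of the library labelled SRSF2f/f, Msc fell from 147.2 to 97.7, 27.1 and 11.5 CPM. Six2 held at 13.5 and 11.6 CPM in the first 2 groups and then dropped to 4.06 and 2.84 CPM. Eya1 went from 27.2 and 23.7 to 11.9 and 7.01 CPM. Six4 rose from 37.0 CPM (34.0 to 40.3) to 46.6 CPM (41.5 to 52.2) and 67.8 CPM (62.0 to 74.0), and its 59.9 CPM (53.9 to 66.4) in the last group overlapped the group before. Eya4 stayed between 43.0 and 52.7 CPM, Eya2 between 12.9 and 16.7 CPM and Pitx3 between 29.3 and 39.9 CPM. These groups hold 46, 12, 23 and 30 cells in the library labelled SRSF2f/w, and Msc stood at 167.2, 105.6, 14.1 and 5.83 CPM. There Six2 went from 15.3 CPM to 50.5 CPM (25.2 to 90.4) in the second group, on 11 UMIs in 4 of 12 cells, and then to 5.63 and 3.89 CPM. Eya1 went from 37.6 CPM (24.8 to 54.7) to 18.4 CPM (5.00 to 47.0), 5.63 and 13.6 CPM. Six4 in that library rose over all groups, at 25.1, 36.7, 47.8 (27.9 to 76.6) and 79.7 CPM (57.2 to 108.1). Eya4 was less even there, at 47.4, 41.3, 22.5 (9.72 to 44.3) and 44.7 CPM (28.3 to 67.1), the third on 8 UMIs. Cells that carried Pax7 and at least 5 Myog UMIs together, 176 in the library labelled SRSF2f/f, had Msc at 35.5 CPM and Six4 at 71.9 CPM, and Msc lay between its levels in the Pax7-positive and Myog>=5 cells.

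**Figure D2:**
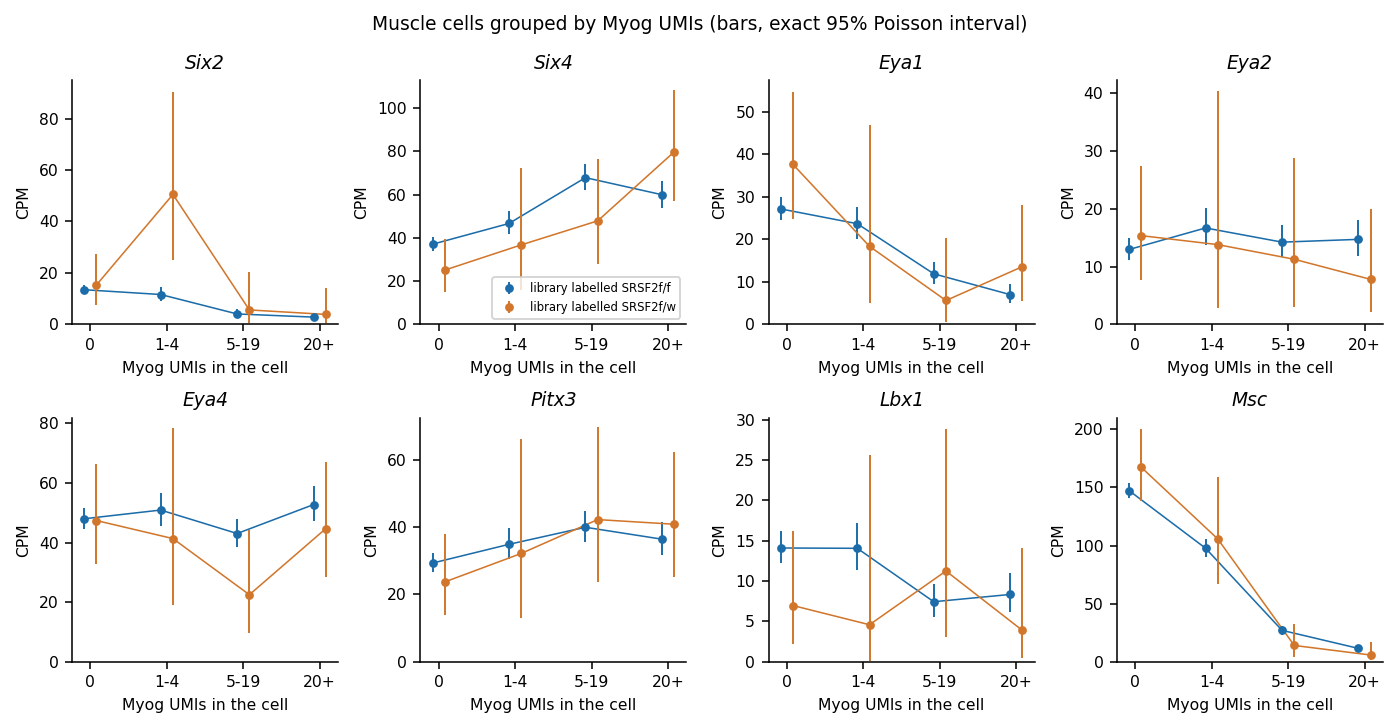
Level of each gene (y axis, CPM) in muscle cells grouped by the Myog UMIs of the cell (x axis), for both libraries, with exact 95% Poisson intervals. In the library labelled SRSF2f/f, Msc fell from 147.2 to 11.5 CPM, Six2 and Eya1 were lower from the third group on, Six4 rose to 67.8 CPM, and Eya4, Eya2 and Pitx3 moved little; the wide bars of the other library come from 12 to 46 cells a group.

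Among 9 relatives listed for comparison, 4 had at least 20 UMIs in both muscle states of the library labelled SRSF2f/f together. One of them was over 2-fold higher in Pax7-positive cells, Pitx1, a hindlimb factor, with a log2 ratio of 1.54 (0.90 to 2.23), and none was over 2-fold higher in Myog>=5 cells. Their median log2 ratio was 0.51. Of 9 muscle regulators, 5 were over 2-fold higher in Pax7-positive cells and 1 in Myog>=5 cells, with a median of 1.29. Myf5 had the highest at 4.40 (3.91 to 4.95), and it helps to set these classes, as does Myod1 at -0.23 (-0.31 to -0.14). Pax3, which acts above them, had 1.39 (0.87 to 1.93), the limb precursor receptor Met 1.29 (0.91 to 1.69), and the cofactor of differentiation Mef2c -3.52 (-3.65 to -3.39). For the library labelled SRSF2f/w, Mef2c had -3.70 (-4.44 to -3.05) and Met 2.67 (0.88 to 5.08).

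In mesenchymal cells and chondrocytes, Msc and Pitx3 were low and in the range of the muscle genes Myog, Myod1 and Pax7. The muscle actin gene Acta1 was above that range in the library labelled SRSF2f/f. Each percent also depends on the muscle level of its own library. In mesenchymal cells Acta1 stood at 7.56 and 1.31 CPM. That contrast is narrower than the one of its percents below, as its muscle level was lower in the library labelled SRSF2f/f. Cells with a few UMIs of Pax7, Myf5, Myod1 or Myog met a muscle class and were left out of these classes. That rule caps the levels of Myog, Myod1 and Pax7 outside muscle, whereas Msc, Pitx3 and Acta1 set no class. In mesenchymal cells of the library labelled SRSF2f/f, Msc was at 2.45% and Pitx3 at 2.31% of their muscle levels, while Myog was at 2.25%, Myod1 at 2.01%, Pax7 at 1.07% and Acta1 at 13.1%. In chondrocytes the values were 1.64% for Msc and 2.04% for Pitx3 beside 1.85% for Myog and 4.07% for Acta1. The library labelled SRSF2f/w holds far fewer muscle cells, and there Msc was at 0.436% and Pitx3 had 0 UMIs in 1147 mesenchymal cells, beside 0.194% for Myog, 0.0795% for Myod1, 0.420% for Acta1 and 0 UMIs of Pax7. A floor of 3 UMIs puts Pitx3 below 0.219 CPM there. The source of these UMIs was not tested. In endothelial cells Msc was above Myog, which the rule caps, in both libraries, at 4.50% against 1.41% and at 0.522% against 0.122%. The former rests on 22 UMIs in 9 of 358 cells, with 7 UMIs in a single cell, and the latter on 7 UMIs in 3 of 884 cells. Neurons of the library labelled SRSF2f/w likewise had Msc at 1.08% on 8 UMIs and Myog at 0.0793%. Six2, Six4 and the Eya genes were at 20.6% to 34.2% of their muscle levels in mesenchymal cells of the library labelled SRSF2f/f and at 20.7% to 38.8% in the library labelled SRSF2f/w.

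**Figure D3:**
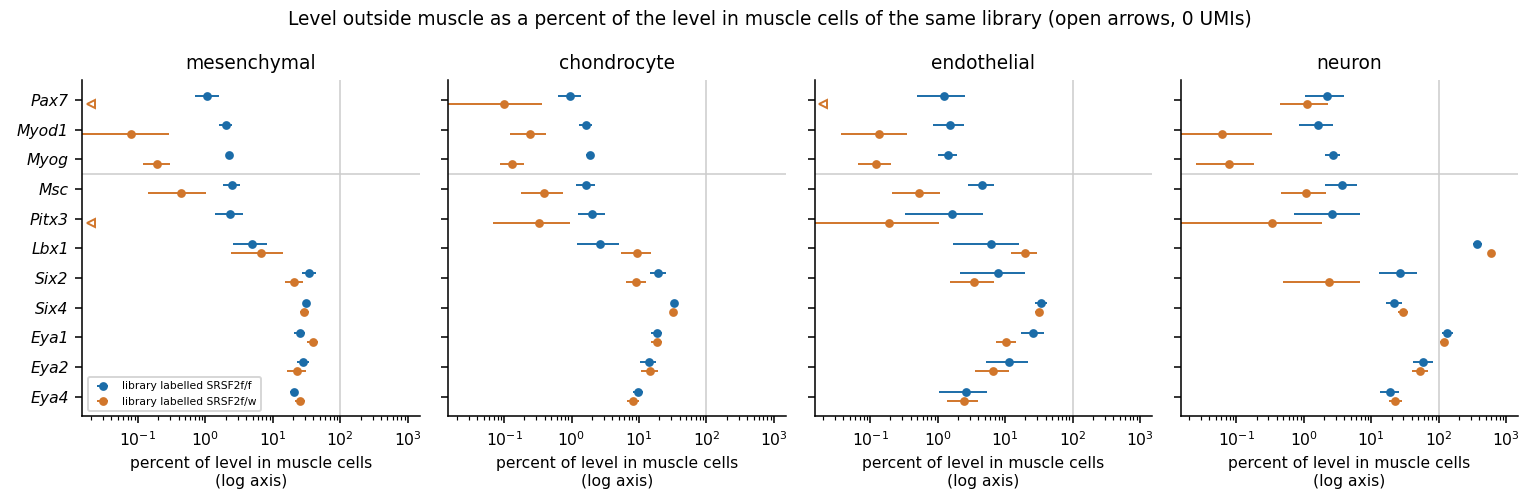
Level in 4 classes outside muscle as a percent of the level in muscle cells of the same library (x axis, log), for 3 muscle genes above the grey line and the 8 genes below it (y axis), with exact 95% Poisson intervals of the outside level. Msc and Pitx3 lay at a few percent or less and were lower in the library labelled SRSF2f/w. Pax7, Myod1 and Myog also lay at a few percent or less, but they help to set the classes, which caps these levels. Six4 stood at 30.8% and 29.4% in mesenchymal cells, and Lbx1 and Eya1 passed 100% in neurons. The bars leave out the counting error of the muscle level. For Eya1 in the library labelled SRSF2f/w, the muscle interval of 15.8 to 30.2 CPM holds the 26.7 CPM of neurons.

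Lbx1 was highest in neurons, at 43.9 CPM (38.0 to 50.4) and 40.0 CPM (36.0 to 44.4), against 13.9 and 9.52 CPM in Pax7-positive cells. A UMI was found in 25.9% and 23.0% of neurons at median depths of 6612 and 7197 UMIs, against 0.813% and 0.684% of immune cells at nearly double the depth, and in 17.5% and 17.3% of neurons after thinning. Neurons were grouped by at least 2 UMIs of other genes. Inhibitory neurons with Gad1, Gad2 or Slc32a1 and no Slc17a6 (108 and 202 cells) had Lbx1 at 122.6 CPM (99.1 to 150.0) and 107.9 CPM (92.0 to 125.7). Excitatory neurons with Slc17a6 and none of the former genes (69 and 154 cells) had it at 27.0 CPM (17.3 to 40.2) and 28.5 CPM (21.8 to 36.6). The log2 ratio of inhibitory over excitatory was 2.18 (1.52 to 2.89) and 1.92 (1.49 to 2.37), the same direction in both libraries. Lbx1 in the remaining classes outside muscle of at least 50 cells was between 0 and 2.44 CPM.

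Eya1 reached its muscle level in neurons too, at 26.6 CPM (22.1 to 31.8) and 26.7 CPM (23.4 to 30.3). It was lower in the inhibitory neurons, at 10.4 CPM (4.50 to 20.6) and 11.2 CPM (6.51 to 17.9), and in the excitatory ones, at 1.12 CPM (0.0285 to 6.27) and 5.14 CPM (2.57 to 9.20). The excitatory value of the library labelled SRSF2f/f rests on 1 UMI. Both groups were thus below neurons as a whole in Eya1, whereas Lbx1 in the inhibitory group was above them in both libraries. The third group, with Chat, Mnx1 and Slc5a7 of cholinergic motor neurons, held Eya1 at 80.2 CPM (36.7 to 152.2) in 5 cells and 34.0 CPM (11.03 to 79.3) in 8 cells, on 9 and 5 UMIs. Of the 120 Eya1 UMIs of neurons in the library labelled SRSF2f/f, the inhibitory, excitatory and motor groups held 8, 1 and 9. In the other library they held 17, 11 and 5 of 236. Most neuronal Eya1 UMIs thus lay in neurons that met none of these groups. Eya4 was at 2.61 and 9.87 CPM in inhibitory and at 1.12 and 3.27 CPM in excitatory neurons, on 15 UMIs or fewer each.

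Six4 was the most widespread of the 8 genes. It stood between 13.3 and 17.6 CPM in mesenchymal, chondrocyte, endothelial, epidermal and Schwann cells of both libraries, neighbours in this order whose intervals overlap. Osteoblasts had more, at 27.9 CPM (23.1 to 33.5) and 25.1 CPM (18.6 to 33.2), with a log2 ratio over mesenchymal cells of 0.88 (0.56 to 1.18) in the library labelled SRSF2f/f. Immune cells had 1.04 CPM (0.126 to 3.75) and 1.23 CPM (0.613 to 2.20). Among neurons Six4 was at 3.91 and 3.95 CPM in the inhibitory group and at 20.2 and 24.8 CPM in the excitatory group, a log2 ratio of -2.37 (-4.78 to -0.60) and -2.65 (-4.16 to -1.43), opposite to Lbx1 in both libraries.

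**Figure D4:**
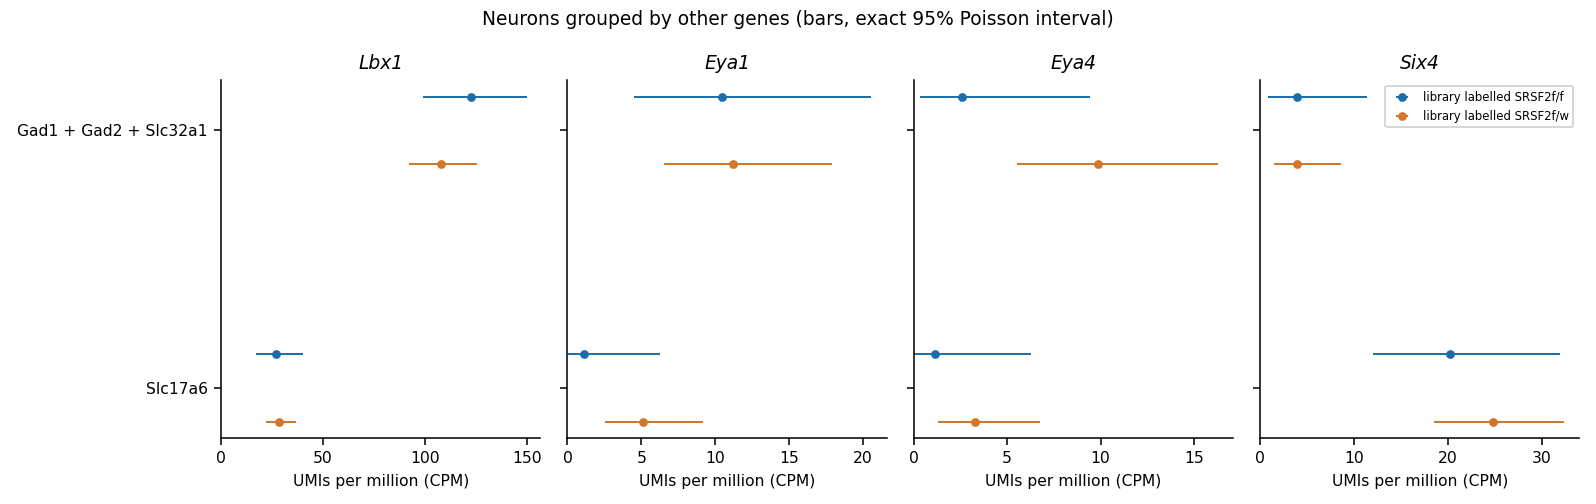
Level of 4 genes (x axis, CPM) in neurons grouped by other genes (y axis), for both libraries, with exact 95% Poisson intervals. Lbx1 was higher with Gad1, Gad2 or Slc32a1, at 122.6 and 107.9 CPM, and Six4 was higher with Slc17a6, at 20.2 and 24.8 CPM.

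Eya2 outside muscle was highest in Schwann cells, the glia of peripheral nerve, at 14.4 CPM (9.15 to 21.7) and 8.31 CPM (3.98 to 15.3). These levels match those in muscle within counting error, and rest on 23 and 10 UMIs. Neurons followed at 8.42 CPM (5.96 to 11.6) and 6.56 CPM (4.98 to 8.47), whose intervals overlap those of Schwann cells. Eya4 outside muscle was highest in Schwann and mesenchymal cells and neurons, at 6.65 to 13.2 CPM with overlapping intervals. It was 4.70 and 3.36 CPM in chondrocytes and 1.27 and 0.998 CPM in endothelial cells, and the latter did not exceed immune cells at 3.11 and 1.12 CPM.

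Mesenchymal cells were grouped by at least 2 UMIs summed over other genes. A cell may fall in more than 1 group, and the ratio intervals treat the groups as separate cells. On that basis Eya1, Eya2 and Six4 differed between these groups by more than counting error, and Eya4 did not. Cells with tendon genes Tnmd and Scx (264 and 198 cells) had Eya1 at 10.4 CPM (7.21 to 14.5) and 11.4 CPM (7.88 to 16.1). Cells with the fibroblast genes Dpt and Clec3b (739 and 230 cells) had 2.38 CPM (1.51 to 3.58) and 2.25 CPM (0.969 to 4.42), a log2 ratio of 2.13 (1.32 to 2.96) and 2.35 (1.21 to 3.67) for the former over the latter. Six4 differed in the same way, with log2 ratios of 1.19 (0.78 to 1.60) and 0.99 (0.32 to 1.69). Cells with the transcription factor Foxd1 were high in Eya1 as well, at 11.7 and 14.5 CPM, and in Eya2, at 10.7 and 4.72 CPM. Six2 differed in the library labelled SRSF2f/w, where cells with Osr1 and Meox2, transcription factors of connective tissue, had 6.09 CPM (3.61 to 9.62) and Dpt and Clec3b cells 1.68 CPM (0.618 to 3.67), a log2 ratio of 1.85 (0.46 to 3.48). The same groups of the library labelled SRSF2f/f had 4.18 and 3.52 CPM, a log2 ratio of 0.24 (-0.52 to 1.0). Eya4 lay between 7.31 and 12.1 CPM in all 5 groups of both libraries.

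**Figure D5:**
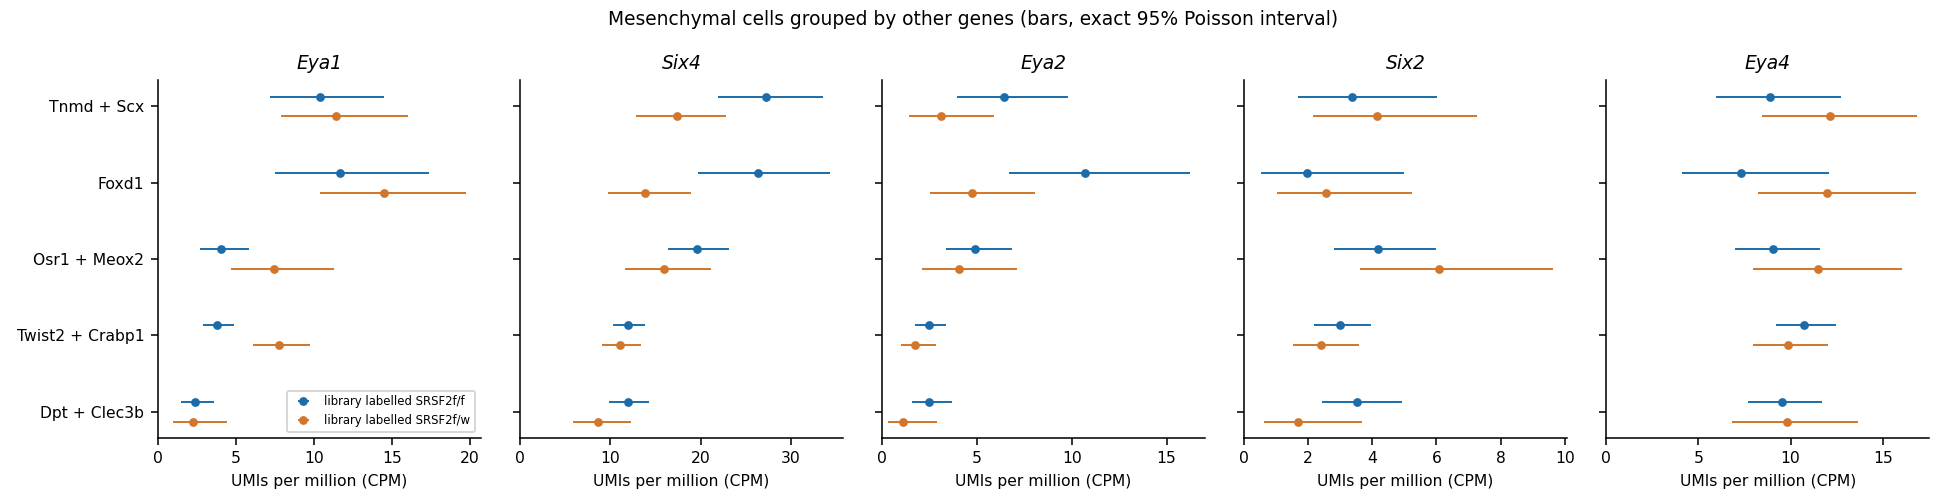
Level of 5 genes (x axis, CPM) in mesenchymal cells grouped by other genes (y axis), for both libraries, with exact 95% Poisson intervals; groups may share cells. Eya1 was highest in the Tnmd and Scx and the Foxd1 groups and lowest with Dpt and Clec3b at 2.38 and 2.25 CPM, and Eya4 differed little between groups.

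Cells that met no class (3872 and 3519) held the 8 genes too, with Six4 at 22.6 and 24.5 CPM, Eya4 at 13.0 and 12.8 CPM and Eya1 at 9.30 and 16.1 CPM. Msc there was 14.8 CPM in the library labelled SRSF2f/f and 2.04 CPM in the other. Pitx3 showed the same contrast, at 2.64 and 0.217 CPM. Muscle cells made up 18.08% and 1.073% of kept cells, and whether these UMIs came from muscle cells that met no class was not tested.

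The comparison between libraries asks whether the 8 genes differed at like cell state, and each direction follows the labels, which the data go against. Over all muscle cells, 6 of the 8 genes were higher in the library labelled SRSF2f/f and Six2 and Eya1 were lower, while 58.3% of 13107 genes were higher. Past 1.5-fold, Lbx1 alone was higher in the library labelled SRSF2f/f (19.2% of genes) and Six2 alone in the library labelled SRSF2f/w (7.93%). The log2 ratios were 0.81 (-0.01 to 1.78) for Lbx1 and -0.64 (-1.21 to 0.0) for Six2, and both intervals reach 0. After thinning to 5000 UMIs they were 0.32 and 0.07, so that neither call was left and Six2 turned. The mix of muscle states differs between the libraries, so the states were also compared one by one. Among Pax7-positive cells, 2 of the 8 genes were over 1.5-fold higher in the library labelled SRSF2f/w (10.0% of 11872 genes) and none in the library labelled SRSF2f/f (23.8%). Six2 stood at 13.1 CPM (11.5 to 14.9) in the library labelled SRSF2f/f and 30.2 CPM (18.2 to 47.1) in the other, a log2 ratio of -1.20 (-1.87 to -0.44), and the 19 UMIs of the latter lay in 20.5% of its 39 cells with up to 5 in a single cell. Eya1 stood at 27.0 and 42.9 CPM, a log2 ratio of -0.67 (-1.23 to -0.05). Msc had -0.26 (-0.55 to 0.04), Eya4 -0.07 (-0.57 to 0.47), Pitx3 0.11 (-0.56 to 0.88), Six4 0.34 (-0.30 to 1.06), Eya2 -0.21 (-1.12 to 0.86) and Lbx1 0.55 (-0.60 to 2.0), and none of these intervals leaves out 0. The intervals hold Msc, Eya4 and Pitx3 within 2-fold, whereas those of Six4, Eya2 and Lbx1 reach past it.

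In Myog>=5 cells the log2 ratio of the library labelled SRSF2f/f over that labelled SRSF2f/w lay between -0.95 (-2.46 to 1.01) for Six2 and 1.27 (-0.64 to 4.34) for Lbx1. Of the 8 genes, 3 were over 1.5-fold higher in the library labelled SRSF2f/f (21.8% of 10713 genes), namely Lbx1, Msc and Eya2, and Six2 was over 1.5-fold higher in the other (9.51%). All 8 intervals span 0. Mesenchymal cells are numerous in both libraries (2063 and 1147), and 6 of the 8 genes had enough UMIs there. Past 1.5-fold, Msc was higher in the library labelled SRSF2f/f (6.81% of 14278 genes) and Eya1 in the library labelled SRSF2f/w (5.98%). Eya1 stood at 4.91 CPM (4.05 to 5.90) and 8.60 CPM (7.12 to 10.3), a log2 ratio of -0.81 (-1.19 to -0.42) and lower than that of all but 3.35% of genes. The make-up of this class differed between the libraries: cells with Foxd1, high in Eya1, numbered 172 and 210, and Dpt and Clec3b cells, low in Eya1, 739 and 230. Within groups, Eya1 was at 3.82 and 7.78 CPM with Twist2 and Crabp1, genes of dermal mesenchyme, and at 4.03 and 7.44 CPM with Osr1 and Meox2. It was at 2.38 and 2.25 CPM with Dpt and Clec3b, 10.4 and 11.4 CPM with Tnmd and Scx, and 11.7 and 14.5 CPM with Foxd1. The part of the make-up in the difference was not tested. Six4 and Eya4 had ratios of 0.15 (-0.11 to 0.41) and -0.08 (-0.38 to 0.23) there, and Six2 0.09 (-0.48 to 0.67). Msc had 2.58 (1.26 to 4.26), at 2.17 and 0.364 CPM. The muscle regulators Myod1 and Myf5 went the same way there, with ratios of 4.63 (2.73 to 7.7) and 2.58 (0.53 to 5.72). Muscle cells made up 18.08% and 1.073% of kept cells, and the source of these UMIs in mesenchymal cells was not tested. Eya1 in endothelial cells went the other way from Eya1 in mesenchymal cells, at 5.07 and 2.31 CPM, a log2 ratio of 1.14 (0.37 to 1.88). In Schwann cells Eya1 had -2.17 (-3.96 to -0.67) from 5 and 17 UMIs. In neurons it was close to equal, at 26.6 and 26.7 CPM (interval of the log2 ratio -0.33 to 0.32).

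The 8 genes were also matched to other genes by Pearson correlation of log2(CPM + 1) over 24 class-by-library sums. Each sum needed at least 50 cells, and the match was among 14430 genes, leaving out those that set a class. No muscle class of the library labelled SRSF2f/w reached 50 cells, so the muscle sums all come from the other library. These sums share libraries and depth, and the values are a description. Pitx3 was closest to 1110002E22Rik (0.983), Fitm1 (0.979) and Vgll2 (0.970), and Msc to its antisense Gm9947 (0.929), Pitx3 (0.916) and Rbm20 (0.915). Six2 was closest to Cited1 (0.888), Msc (0.865) and Ccne1 (0.863), and Six4 to Spats2l (0.824), Pwwp3b (0.821) and Ankmy1 (0.818). Among the genes most like Eya4 were Kcne1l (0.902) and Ncoa1 (0.900). Eya2 was closest to Rxrg (0.929), Tmem38a (0.915) and Pcbp4 (0.908), and Eya1 to Ttll11 (0.883), Pcbp4 (0.872) and Nnat (0.868). Lbx1 was closest to Adcyap1r1 (0.924), Iqsec3 (0.923) and Dcx (0.913), the last a marker of young neurons. Among the 8 genes, Pitx3 with Msc (0.92) and Eya2 with Eya4 (0.87) were the most alike pairs, and Six4 with Lbx1 (0.37) the least.

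On GRCm38 the genes lie on the minus strand except Eya2. Six2 (ENSMUSG00000024134) is on chromosome 17 from 85684277 to 85688274 and Six4 (ENSMUSG00000034460) on chromosome 12 from 73099609 to 73113456. Eya1 (ENSMUSG00000025932) is on chromosome 1 from 14168954 to 14310235, Eya2 (ENSMUSG00000017897) on chromosome 2 from 165595032 to 165771727 and Eya4 (ENSMUSG00000010461) on chromosome 10 from 23102963 to 23350786. Pitx3 (ENSMUSG00000025229) is on chromosome 19 from 46135685 to 46148326 and Lbx1 (ENSMUSG00000025216) on chromosome 19 from 45232684 to 45235812. Msc (ENSMUSG00000025930) is on chromosome 1 from 14753346 to 14755992. Pitx3 overlaps Elovl3 on the opposite strand, Eya1 overlaps Gm22616, and Eya2 overlaps Gm28163 and Gm11460. On the same strand, Eya1 overlaps Gm37444 and Eya4 overlaps Gm24655. Whether these overlaps changed the counts was not tested.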

How the data were processed

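Single tdT+ cells of both libraries were counted as UMIs per gene. The deposited table holds raw UMI counts of 32285 genes in 27766 barcodes, which the authors made with Cell Ranger (5.0.0 in the matrix header, 3.1.0 in the submitters' processing notes, which also name STAR and Seurat 3.1.1) on mm10, aggregating the libraries after down-sampling reads. Other deposited entries (barcodes, gene names, run summaries) served as labels. Barcode suffixes were paired with libraries by the cell numbers of the summaries, 15268 and 12498. Kept cells hold 151555303 UMIs in the library labelled SRSF2f/f and 122938843 in that labelled SRSF2f/w. No column of other samples was present.

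Barcodes over 2 SD from their library's mean of log10 UMIs or log10 genes, or over 10% mitochondrial, were dropped. A class outside muscle needed 5 UMIs over its marker list from at least 2 genes, and mesenchymal cells a Pdgfra UMI and 5 UMIs of Pdgfra, Dcn and Lum. Pax7-positive cells had a Pax7 UMI, at least 2 UMIs of Pax7, Myf5 and Myod1 and fewer than 5 of Myog. Cells that met more than 1 class (538 and 560) were left out, which also stood in for a doublet caller; the alternatives include keeping them in muscle. Ratios have exact 95% intervals from the binomial split of UMIs, and shares exact Clopper-Pearson ones. Backgrounds are all genes with at least 20 UMIs, past 2-fold between states or 1.5-fold between libraries. A count against immune cells also needed 20 UMIs. A gene at 0 has a floor of 3 UMIs over the class. Shares were repeated after thinning cells to 5000 UMIs. The ratio intervals were also run on simulated sums drawn as Poisson counts, the model that they assume. For 12704 genes between muscle states, 96.0% of them held the true ratio. For 11872 genes between libraries in Pax7-positive cells, 97.0% did. This checks the calculation only, since spread between cells was not simulated.

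Named are the 8 genes, 9 relatives (Six3, Six5, Six6, Eya3, Dach1, Dach2, Pitx1, Lbx2, Tcf21), 9 regulators (Pax3, Myf5, Myod1, Myf6, Meox1, Meox2, Tcf15, Mef2c, Met), the 3 most alike genes of each, Srsf2 and class markers. Some listed items, and results that need them, are not reported here. The genes and lists were chosen with earlier results of these data known. Coordinates are from GENCODE on GRCm38. Alternatives changed the quality, marker and Myog limits, the denominator and the depth. Python 3.11.15, NumPy 2.4.6, SciPy 1.17.1, pandas 2.3.3 and matplotlib 3.10.9 were used.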

Additional observations from a re-analysis of the deposited data

Results flagged for a closer look

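Eya2 leaned in opposite directions between muscle states in the 2 libraries: the log2 ratio of Pax7-positive over Myog>=5 cells was -0.06 in the library labelled SRSF2f/f and 0.90 in the library labelled SRSF2f/w. The difference was not tested, the second value comes from 10 and 6 UMIs, and both intervals span 0.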

How the results depend on the processing

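No paired analysis was possible because each group is 1 library, and for the same reason none could be left out. The 10 alternatives kept all 4 counts within 1.5 times of those of the main setting. Of the 8 genes, 5 to 7 had their highest level in muscle. By any amount, 4 to 6 were higher in Pax7-positive than in Myog>=5 cells. The main setting of the library labelled SRSF2f/f gave 5, near the share over all genes, 63.5% of 12704. In muscle, 5 or 6 were higher in the library labelled SRSF2f/f. In a class outside muscle, 5 to 8 were at least 2-fold above immune cells, where 7 were so in the library labelled SRSF2f/f. The library labelled SRSF2f/w, added as an alternative after the data were seen, gave 7, 6 and 6 for the first, second and last of these. For the second, 60.0% of 5807 genes were higher in Pax7-positive cells of that library. The genes whose highest class moved out of muscle were Eya1, under 5 alternatives, and Eya2 under 1, both close to muscle in neurons or Schwann cells. Msc no longer passed the comparison with immune cells under 3 of the 10 alternatives, and Six2 did not after thinning to 5000 UMIs. No ratio whose interval left out 0 changed direction. Of 240 levels in muscle states, 205 stayed within their counting interval, and 24 of the 35 that left it did so once globin, ribosomal protein and mitochondrial genes were left out of the denominator. Of 80 ratios between states, 79 stayed, the exception being Lbx1 at 0.51 after thinning, and of 80 between libraries 78, the exceptions being Six2 at 0.07 and Pitx3 at 0.76 after thinning. Depth limits the library labelled SRSF2f/w most: its muscle classes hold 111 cells, and 3 UMIs over its Pax7-positive cells come to 4.76 CPM.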

Other observations

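Dach1, a partner of the Eya coactivators, was low in muscle, at 2.49 and 1.11 CPM, and high in neurons, at 49.9 and 48.5 CPM. Endothelial cells followed, at 37.0 CPM in the library labelled SRSF2f/f. Dach2 was highest in osteoblasts, at 11.8 and 13.3 CPM, against 0.405 and 1.11 CPM in muscle. Eya3 was spread over classes, at 8.04 and 8.45 CPM in mesenchymal cells and 18.7 and 12.6 CPM in immune cells, which held little of the other Eya genes. Six5 was at 9.12 and 6.56 CPM in mesenchymal cells, above its 2.92 and 0.554 CPM in muscle. The muscle values of Dach1, Dach2 and Six5 in the library labelled SRSF2f/w rest on 2, 2 and 1 UMIs. All are under the floor of 3 UMIs, which is 1.66 CPM there. Six3, Six6, Lbx2 and Tcf21 stayed at or under 3.81 CPM in every class of at least 50 cells.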
